A study of Mus musculus with 6 samples.

Results

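The genes described here are the 10 best known members of the AP-1 and EGR transcription factor families: Fos, Fosb, Fosl1 and Fosl2 (Fos family), Jun, Junb and Jund (Jun family), and Egr1, Egr2 and Egr3 (Egr family). They were chosen by family name, 10 of the 54752 genes in the deposited table, and all 10 were found there and passed the filter on low counts. The data are RNA-seq counts from mouse embryonic fibroblasts, cells grown out of dissected embryos, of a line labelled p53 deleted. All 6 libraries share that deletion and the tag neo. In the 3 shNT libraries the cells carried a negative control shRNA delivered by lentivirus (genotype labelled WT), and in the 3 shARF libraries a p19ARF shRNA (genotype labelled ARF knockdown). The sample titles call the replicates biological ("biol rep"). The labels do not say how many embryos, infections or clones lie behind the replicates. The p-values thus reflect the spread among these 6 samples alone, and that spread may be technical. The growth medium held serum; the sources used here do not give the time since the last change of medium, which bears on these genes.

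AP-1 is a dimer of basic leucine zipper proteins. Jun proteins can pair with each other or with a Fos protein, whereas Fos proteins need a partner such as a Jun protein. The dimer binds DNA at the sequence TGAGTCA and its relatives. EGR proteins bind GC-rich sites through zinc fingers. Fos, Fosb, Jun, Junb and the Egr genes are immediate early genes: in fibroblasts their transcription starts within minutes of serum or growth factor reaching the cell, through kinases of the MAPK cascades and factors such as SRF and its ELK partners that are already bound at the promoter. Fosl1 (FRA-1) and Fosl2 (FRA-2) respond more slowly and are themselves targets of AP-1, and Jund is present in resting cells.

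The promoters are shown for the letters in them that match known sites of CREB, SRF, AP-1 and EGR proteins. RefSeq promoter windows (GRCm38.p6) were matched for 7 of the 10 genes, and the 250 bases before each start were searched on both strands. Stretches of 60 bases follow for 6 genes, 5′ to 3′ on the gene's strand. Capitals mark TGACG (a CRE half-site), GCGGGGGCG (an EGR site), TGACATCA (the AP-1-like site of the Jun promoter) and the CArG box bound by SRF.
Fos, chr12:85473796-85473855, plus strand: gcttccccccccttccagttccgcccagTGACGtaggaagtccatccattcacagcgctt
Fosb, chr7:19310062-19310121, minus strand: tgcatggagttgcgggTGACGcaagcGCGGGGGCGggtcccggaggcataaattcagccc
Fosl2, chr5:32136367-32136426, plus strand: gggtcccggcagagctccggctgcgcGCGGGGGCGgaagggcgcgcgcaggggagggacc
Jun, chr4:95052234-95052293, minus strand: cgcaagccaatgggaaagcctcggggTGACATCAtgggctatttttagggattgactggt
Junb, chr8:84978823-84978882, minus strand: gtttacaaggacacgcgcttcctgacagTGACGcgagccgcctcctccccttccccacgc
Egr2, chr10:67537772-67537831, plus strand: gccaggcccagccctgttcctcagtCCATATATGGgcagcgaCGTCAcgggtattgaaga
In these stretches the CRE half-site begins 66 bases before the RefSeq start of Fos. The EGR site begins 50 bases before the RefSeq start of Fosb and 79 before that of Fosl2. For Jun, the AP-1-like site begins 45 bases before it. Egr2 holds a CArG box and, on the other strand, a CRE half-site. That pair lies before 3 of its 5 RefSeq starts, and a CArG box before 4 of the 5. The window listed for Jund ends before the start of Jund in the annotation used for its coordinates here, and it held none of the motifs. RefSeq starts and that annotation also differ for Fosl2 and Egr2. Their printed stretches lie inside the gene coordinates given here (32135801 to 32157842 and 67535475 to 67542188), not upstream of them. Among all 32851 promoter windows, TGACG was found in 17.8%, TGACATCA in 2.93%, GCGGGGGCG in 2.57% and the CArG box in 1.47%. The AP-1 site TGAGTCA, found in 4.46% of windows, was not in those of the 7 genes. A match is a description of the letters and not a measured binding site.

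Total counts were 40.3 to 47 M per library, and levels are given in CPM, counts per 1 M counts of the library after TMM scaling. Within a group, no library was a copy of another (chi-square of 13.8 to 18.5 per gene). Cdkn2a, the gene of p19ARF, was at 231, 218 and 223 CPM in shNT and at 95.6, 103 and 107 CPM in shARF. These counts are for the whole gene and do not give the level of the p19ARF transcript alone. The groups also differed in sex-linked genes: Xist was at 360.2 to 413 CPM in shNT and 40.7 to 54.3 CPM in shARF, and the 4 Y-linked genes listed (Ddx3y, Eif2s3y, Kdm5d and Uty) were all higher in shARF. The hairpin and a difference in the starting cells therefore cannot be told apart in any result that follows. All 13 fibroblast markers were detected, with a summed level of 24126 to 25911 CPM in shNT and 27526 to 27871 CPM in shARF. The collagen genes make up much of that sum: of the 13 markers 6 rose, 4 fell and 3 did not pass the test, and Pdgfra (-2.46), Dcn (-2.12) and Postn (-1.21 on the log2 scale) were among those that fell. Their part in the results that follow was not tested. Summed markers of other cell types were at 11.8 to 13.6 and 5.23 to 6.52 CPM (9 macrophage genes), 6.32 to 6.73 and 4.13 to 4.76 CPM (8 endothelial genes), 36.8 to 39.7 and 34.4 to 35.9 CPM (8 epithelial genes) and 74.8 to 79.3 and 95.2 to 103 CPM (8 neural genes) in shNT and shARF. Adgre1, Aif1, Tyrobp, Cdh5, Tie1, Esrp1, Dcx and Sox10 had no count in any library. Other genes of those lists were detected, and some changed. Called lower and higher were 3 and 0 of 3 tested macrophage genes and 3 and 1 of 4 endothelial genes. The same counts were 1 and 3 of 6 epithelial and 1 and 2 of 4 neural genes. Over all genes tested, 27.7% were lower and 28.8% higher, which is the background for these counts and for the fibroblast markers. Csf1r (4.49 to 0.338 CPM) and Krt18 (12.7 to 0.15 CPM) were among those that fell. Kdr (0.282 to 3.13 CPM) and Cdh1 (2.14 to 4.8 CPM) were among those that rose. The endothelial, epithelial and neural sums thus hold changes in both directions.

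The 10 factors did not move as a block between the shNT and shARF libraries. Fosl1, Jun and Jund rose, Fos, Fosb, Egr1, Egr2 and Egr3 fell, and Fosl2 and Junb did not pass the test, although both were called lower with library sizes alone as the scaling, and Junb also without shNT replicate 1. By family, the Fos genes went both ways, Jun and Jund went up, and all 3 Egr genes went down. In all, 8 of 10 were called, against a background of 56.4% of the 17128 genes tested (edgeR quasi-likelihood test, adjusted p under 0.05), 3 of them higher (background 28.8%) and 5 lower (27.7%). The CPM of the groups were apart for 9 of 10, against 64.6% of all genes, 3 with shARF above (background 32.6%) and 6 with shARF below (32%). The median log2 fold change was -0.27 for the 10 factors and -0.01 for all genes tested. With so large a background these counts are not a result about the families, and the values of each gene carry the description. RNA was taken from the whole culture, so fewer cells that express a gene and less RNA per cell cannot be told apart.

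**Figure D1:**
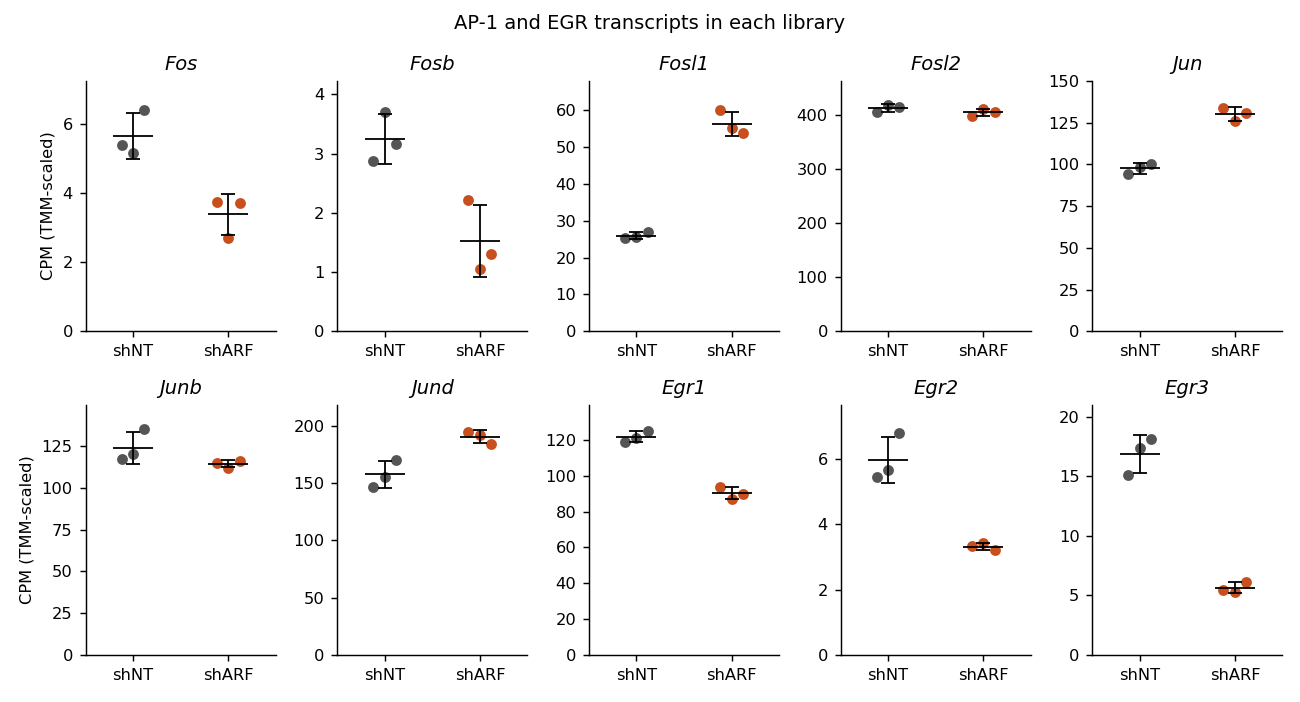
Level of each factor in each library, in TMM-scaled CPM on axes that start at 0 (points: the 3 shNT and 3 shARF libraries, bars: mean and SD). Fosl1 sits between 25.2 and 27.0 CPM in shNT and between 53.7 and 60 CPM in shARF, Egr3 between 15.1 and 18.1 CPM in shNT and between 5.31 and 6.15 CPM in shARF, and the points of Fosl2 overlap.

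In the Fos family, Fosl1 was the gene that rose. Fosl1 (ENSMUSG00000024912.5; GRCm38 chromosome 19, 5447547 to 5455946, plus strand) encodes FRA-1, the Fos protein tied to sustained ERK signalling and to invasive growth. It was at 25.2, 25.7 and 27.0 CPM in shNT replicates 1, 2 and 3 and at 60, 55.3 and 53.7 CPM in shARF. Every shARF library lay well above every shNT library. From a mean of 26.0 ± 0.904 CPM in shNT (SD, n = 3, as for all means here), Fosl1 rose to 56.3 ± 3.28 CPM in shARF, a level at 217% of shNT (95% interval 198 to 238%; log2 fold change 1.12, SE 0.06, edgeR adjusted p = 6.15e-06). Fosl1 overlaps the 3′ part of Ccdc85b on the opposite strand, and the sources used here do not give whether reads were counted by strand. Ccdc85b was at 14.4 to 15.8 CPM in shNT and 16.1 to 16.4 CPM in shARF and did not pass the test (0.11, adjusted p = 0.121).

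Fosl2 (ENSMUSG00000029135.10; chromosome 5, 32135801 to 32157842, plus strand), which encodes FRA-2, was the most abundant Fos transcript. Its level was 405, 418 and 414 CPM in shNT and 398, 411 and 405 CPM in shARF. The groups overlapped, and the log2 fold change of -0.03 had a 95% interval of -0.08 to 0.03 (adjusted p = 0.342). That interval leaves room for a change of a few percent and not for one like that of Fosl1. With library sizes alone as the scaling, Fosl2 was called lower (-0.12, adjusted p = 0.00359).

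Fos and Fosb, the Fos genes that respond fastest to serum, were scarce in both groups and fell. Fos (ENSMUSG00000021250.13; chromosome 12, 85473890 to 85477273, plus strand) was at 5.41, 5.17 and 6.41 CPM in shNT and at 3.75, 2.71 and 3.71 CPM in shARF. The highest shARF library was below the lowest shNT library. Means were 5.67 ± 0.658 and 3.39 ± 0.587 CPM, with a log2 fold change of -0.74 (SE 0.15, edgeR adjusted p = 0.00567). Each of these values rests on 119 to 264 counts. Fosb (ENSMUSG00000003545.3; chromosome 7, 19302696 to 19310051, minus strand) was at 2.87, 3.7 and 3.16 CPM in shNT and at 2.21, 1.05 and 1.3 CPM in shARF. Replicate 1 of shARF stood nearest to shNT without reaching it. Means were 3.24 ± 0.421 and 1.52 ± 0.611 CPM (-1.09, SE 0.27, edgeR adjusted p = 0.0128), a wide interval of -1.75 to -0.44. Counts per library were 46 to 180, so Fosb was measured least precisely of the 10 genes. Its full-length form and the truncated splice form known as delta FosB were counted as 1 gene.

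The Jun family, whose proteins are partners of the Fos proteins, rose in part. Jun (ENSMUSG00000052684.4; chromosome 4, 95049034 to 95052222, minus strand) was at 94.0, 98.3 and 100.5 CPM in shNT and at 134, 126 and 131 CPM in shARF. The groups were apart. Jun rose from 97.6 ± 3.3 to 130.4 ± 3.91 CPM (log2 fold change 0.42, SE 0.04, edgeR adjusted p = 9.27e-05). Jund (ENSMUSG00000071076.6; chromosome 8, 70698949 to 70700616, plus strand), a Jun gene that is often ascribed a restraining role in growth, was at 147, 155 and 170.5 CPM in shNT and at 195, 192 and 184 CPM in shARF. It rose by a smaller step, from 158 ± 11.9 to 190.3 ± 6.08 CPM (0.27, SE 0.06, edgeR adjusted p = 0.00551).

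Junb (ENSMUSG00000052837.6; chromosome 8, 84974484 to 84978718, minus strand), an immediate early Jun gene, was at 117, 120.0 and 135 CPM in shNT and at 115, 112 and 116 CPM in shARF. The groups were apart by a narrow gap, with the spread largest in shNT. The log2 fold change of -0.11 did not pass the test (95% interval -0.24 to 0.02, adjusted p = 0.118). Without shNT replicate 1 the call changed (-0.16, adjusted p = 0.0459), as it did with library sizes alone (-0.20, adjusted p = 0.0118) (all alternatives gave 0.0118 to 0.267). Junb overlaps Prdx2 on the opposite strand, and Prdx2, a peroxiredoxin gene named after its values were seen, fell from 225 to 235 CPM in shNT to 146 to 149 CPM in shARF. The part of reads from Prdx2 in the Junb value was not tested. Jun and Jund overlap the antisense genes Junos and Gm11175, which stayed at or under 2.09 CPM in every library.

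Of the 3 families, the Egr genes were the one in which each member fell. Egr1 (ENSMUSG00000038418.7; chromosome 18, 34859823 to 34864984, plus strand), the member induced most widely by growth factors, was at 119, 121 and 125 CPM in shNT and at 93.7, 87.0 and 89.9 CPM in shARF. It fell from 122 ± 3.23 to 90.2 ± 3.36 CPM (log2 fold change -0.43, SE 0.04, edgeR adjusted p = 8.38e-05). Egr2 (ENSMUSG00000037868.15; chromosome 10, 67535475 to 67542188, plus strand), known from Schwann cells and hindbrain, was at 5.45, 5.67 and 6.78 CPM in shNT and at 3.32, 3.42 and 3.2 CPM in shARF. Its shARF libraries lay close together, all below shNT, and it fell from 5.97 ± 0.712 to 3.32 ± 0.112 CPM (-0.85, SE 0.11, edgeR adjusted p = 5.25e-04). Egr3 (ENSMUSG00000033730.4; chromosome 14, 70077203 to 70082614, plus strand), a target of Egr1 in several cell types, was at 15.1, 17.4 and 18.1 CPM in shNT and at 5.47, 5.31 and 6.15 CPM in shARF. It fell from 16.9 ± 1.61 to 5.64 ± 0.446 CPM, which is 33.5% of shNT (95% interval 28.5 to 39.3%; -1.58, SE 0.10, edgeR adjusted p = 1.55e-05). The intervals of the log2 fold changes were -0.52 to -0.34 for Egr1, -1.10 to -0.59 for Egr2 and -1.81 to -1.35 for Egr3, and do not overlap. Levels and relative changes thus ran in different orders, with Egr1 the most abundant and the least changed.

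**Figure D2:**
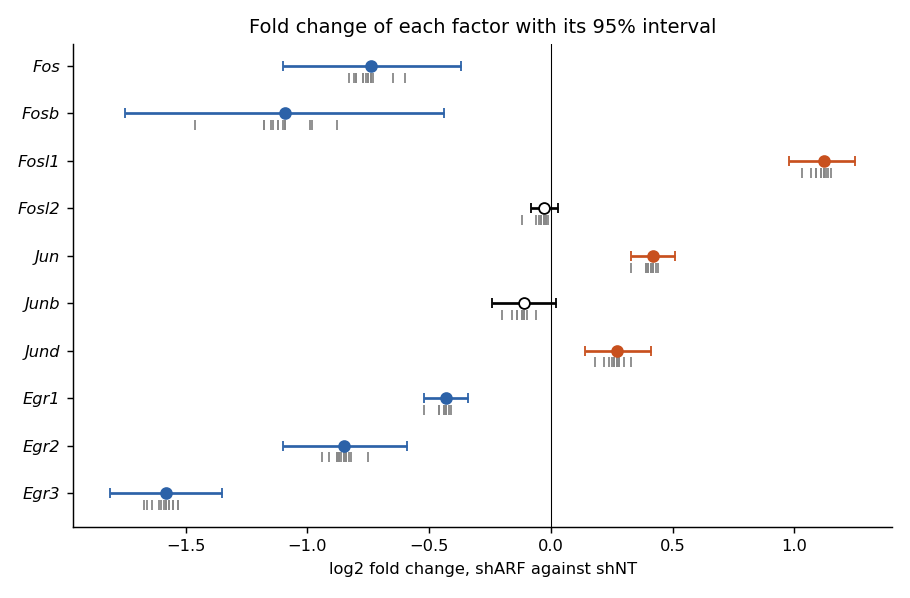
Log2 fold change of shARF against shNT for each factor (circle) with its 95% confidence interval from edgeR, orange for higher, blue for lower and open for not called, with the values of the alternative analyses as grey ticks below. No tick crosses 0 for any of the 10 genes, and Fosb has the widest interval, -1.75 to -0.44.

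Levels of different genes were compared per length, as CPM per kb of merged exons. In shNT the order was Jund (94.4 CPM per kb), Junb (53.9), Fosl2 (42.6), Jun (30.6), Egr1 (27.2), Fosl1 (12.8), Egr3 (3.83), Fos (2.41), Egr2 (1.76) and Fosb (0.519), and each gene was apart from the next in all libraries. In shARF, Fosl1 at 27.7 CPM per kb stood above Egr1 at 20.1, the reverse of shNT, and Fos at 1.44 above Egr3 at 1.28, although those last 2 overlapped. Fosl2 (41.8) and Jun (40.9) overlapped in shARF too. Merged exons can be longer than any 1 transcript, as for Fosl2 and not for Jun: with the principal transcript as the length, an alternative chosen after the data were seen, Fosl2 was at 61.9 and Jun at 40.9 CPM per kb in shARF.

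The makeup of each family shifted with these changes. Fosl1 made up 21.8, 21.6 and 22.4% of the Fos family total per kb in shNT and 40.7, 38.3 and 37.7% in shARF. Fosl2 held 73.4, 73.6 and 72.1% in shNT and 56.7, 59.8 and 59.8% in shARF, although its own level was not called as changed. The size of these shifts depends on the length correction: from plain CPM the share of Fosl1 differed by 6.28 points in place of 17, that of Fosl2 by -5.34 in place of -14.3 and that of Fos by -0.539 in place of -2.1. Fos fell from 4.13 ± 0.432 to 2.02 ± 0.346% of the family and Fosb from 0.89 ± 0.107 to 0.34 ± 0.131%. So FRA-1 and FRA-2 transcripts together formed nearly all Fos family RNA in both groups. In the Jun family, Jund was at 52.8 ± 0.444% in shNT and 55.7 ± 1.06% in shARF, Jun at 17.1 ± 0.644 and 20 ± 0.496%, and Junb at 30.1 ± 0.414 and 24.3 ± 0.628%. Egr1 was at 83.0 ± 1.02% of the Egr family in shNT and 89.9 ± 0.438% in shARF, Egr3 at 11.7 ± 0.723 and 5.73 ± 0.452%, and Egr2 at 5.35 ± 0.442 and 4.37 ± 0.254%. The groups were apart for each of the 10 shares, and each had p = 0.1 in a two-sided exact permutation test, before and after adjustment over the 10, which is the lowest p that 3 against 3 libraries can reach. Shares in a family are bound to each other, so a rise of 1 gene lowers the rest.

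**Figure D3:**
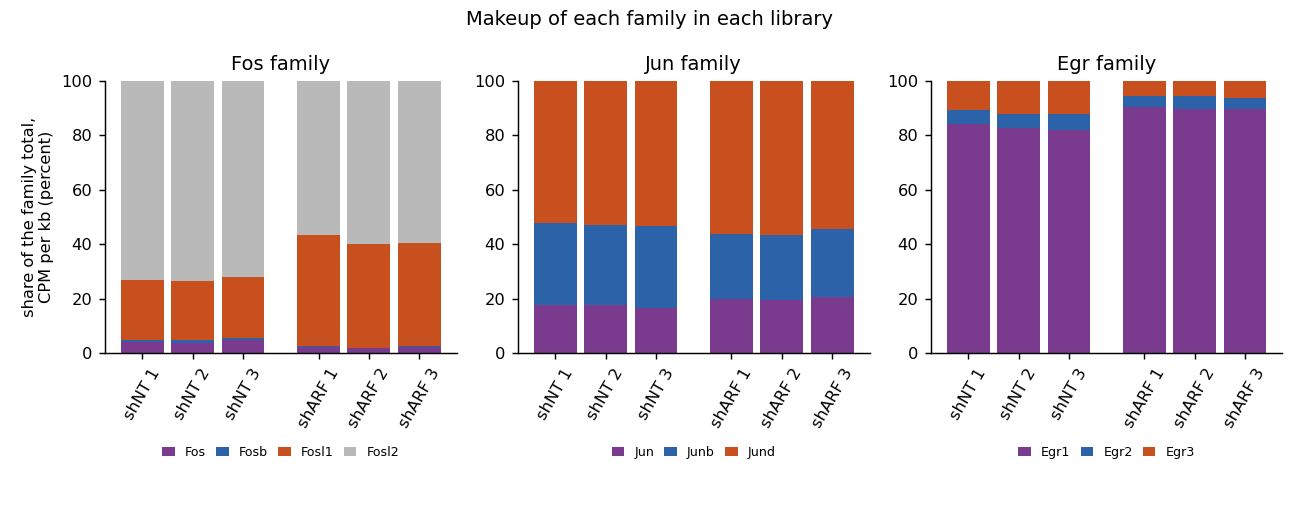
Share of each gene in the total of its family in each library, in percent of summed CPM per kb of exon (stacked bars, 1 per library, each adding to 100%). The Fosl1 band widens from 21.9% on average in shNT to 38.9% in shARF, and Egr1 holds over 82% of the Egr family in every library.

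Summed over the members, the Fos family was at 57.0, 58.6 and 59.3 CPM per kb in shNT and 72.6, 71.0 and 70.1 in shARF. The sums use merged exon lengths, which give Fosl2 42.6 CPM per kb in shNT and 41.8 in shARF. With the principal transcript Fosl2 was at 63.1 and 61.9, so the size of the Fos rise depends on the length used. Sums with other lengths were not tested. The Jun family was at 169, 176 and 192 CPM per kb in shNT and 209, 203 and 202 in shARF. The Egr family went the other way, from 31.5, 32.7 and 34.0 to 23.1, 21.6 and 22.4 CPM per kb. Each of the 3 sums was apart between groups (exact two-sided permutation p = 0.1 for each, the smallest possible, also adjusted over the 3). Of the 4 Fos genes in the sum, Fosl1 was the one called higher.

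Within groups Fosb, Fos, Egr3 and Egr2 varied most. The SD of log2 CPM between libraries of 1 group was 0.316 for Fosb, 0.194 for Fos, 0.121 for Egr3 and 0.114 for Egr2, and 0.0225 for Fosl2 and 0.0461 for Jun, against a median of 0.0929 over all genes tested. Fosb, Fos and Egr2 were also the 3 genes with the fewest counts, and the part of counting error in this spread was not tested. The fold changes of the factors were set beside those of genes near them. As background for the regional counts below, 28.8% of all genes tested were called higher and 27.7% were called lower. The median over all genes tested was -0.01. Whether any region departs from this background was not tested. Within 5 Mb of Fos, 49 of 92 tested genes were higher and 3 lower (median log2 fold change 0.39), and near Egr3 45 of 77 were higher and 10 lower (median 0.39), while Fos and Egr3 fell. Near Jund 81 of 135 were lower and 16 higher (median -0.35), while Jund rose. Near Junb 57 of 97 were lower and 9 higher (median -0.30, Junb itself -0.11), and near Fosb 33 of 83 were lower and 19 higher (median -0.13, Fosb itself -1.09). The medians near Egr1 (-0.06) and Fosl2 (-0.04) had the same sign as the factor. Around Fosl1 (median -0.03), Jun (0.03) and Egr2 (-0.01) the medians were near 0.

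Among other bZIP genes that can pair with Fos or Jun proteins or compete for their sites, 7 of the 10 tested (of 12 listed) rose and 1 fell, with a median log2 fold change of 0.58 (all genes tested: 28.8% higher, 27.7% lower, median -0.01). Atf3, a stress-induced partner of Jun proteins, rose from 3.57 ± 0.251 to 15.4 ± 0.387 CPM (2.11, adjusted p = 1.29e-06), and Jdp2, which dampens AP-1, from 38.8 ± 1.16 to 94.3 ± 1.35 CPM (1.28, adjusted p = 6.1e-07). Maf, a large Maf protein, was the gene that fell, from 87.8 ± 1.32 to 21.2 ± 1.78 CPM (-2.05, adjusted p = 9.41e-07). The small Maf genes Maff, Mafg and Mafk, named after their values were seen, rose by 0.59, 0.42 and 1.16 on the log2 scale. Batf3 was called higher at 0.81 ± 0.158 CPM and lost that call in several alternatives, among them DESeq2 (adjusted p = 0.0512) and each of shNT replicate 1, shNT replicate 2, shARF replicate 1 and shARF replicate 2 left out (adjusted p = 0.0637 to 0.0941).

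Relatives and corepressors of the EGR proteins moved apart. Nab2, which binds EGR proteins, holds back their targets and is itself induced by them, was at 142, 133 and 153 CPM in shNT and 99.1, 96.1 and 79.3 CPM in shARF (log2 fold change -0.64, adjusted p = 9.67e-04). Its paralog Nab1 was at 66.0 ± 2.12 and 75.3 ± 7.91 CPM and did not pass the test (0.19, adjusted p = 0.0748). Without shARF replicate 2 it did (0.28, adjusted p = 0.00288), while all alternatives together spanned 0.00288 to 0.313. Wt1 is a zinc finger factor with a related DNA site that marks mesothelium and kidney precursors. It was at 0, 0.0616 and 0.243 CPM in shNT (0, 3 and 10 counts) and at 9.53, 9.99 and 9.1 CPM in shARF. Its log2 fold change was 6.59 (edgeR adjusted p = 3.55e-05). Egr4 was not tested for lack of counts.

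Of 12 factors upstream of the immediate early promoters, 7 fell, 1 rose and 4 did not pass the test (median -0.14), and none changed by 2-fold. Called were 66.7% of them, against 56.4% of all genes (28.8% higher, 27.7% lower). Crtc1, a coactivator of CREB, fell from 71.5 ± 0.919 to 52.2 ± 1.76 CPM (-0.45, adjusted p = 6.99e-05). Mrtfb, an actin-regulated coactivator of SRF, fell from 115 ± 3 to 90.2 ± 0.903 CPM (-0.36, adjusted p = 7.03e-05), and Elk1, an ERK-regulated partner of SRF, from 48.3 ± 1.24 to 36.7 ± 0.681 CPM (-0.40, adjusted p = 1.53e-04). Srf itself, named after its values were seen, was at 82.5, 84.5 and 94.4 CPM in shNT and 59.7, 52.6 and 54.3 CPM in shARF (-0.65, adjusted p = 2.38e-04). The gene that rose was Crtc2 (0.23, adjusted p = 0.0159), a call lost without shNT replicate 2 (0.21, adjusted p = 0.0534) and with library sizes alone (0.14, adjusted p = 0.0896).

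Of 23 tested kinases of the MAPK cascades, 9 were higher and 8 lower (median 0.00), in a table where 28.8% of all genes were higher and 27.7% lower. Map2k1, the ERK kinase MEK1, rose from 56.8 ± 1.76 to 100.2 ± 1.54 CPM (0.82, adjusted p = 3.35e-06). Map2k6, a kinase that acts on p38 and not p38 itself, fell from 19 ± 0.17 to 4.6 ± 0.579 CPM (-2.05, adjusted p = 4.56e-06). Rps6ka1, the ERK-activated kinase RSK1, fell from 23.7 ± 0.803 to 13.6 ± 0.374 CPM (-0.80, adjusted p = 1.88e-05). The count of lower kinases was 4 without shNT replicate 2 or shARF replicate 3 and 5 without shNT replicate 3, shARF replicate 1 or shARF replicate 2. The total of 17 called was 11 without shNT replicate 2 or shARF replicate 3. These are transcript levels and do not measure kinase activity.

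Of 11 genes that govern the decay of these mRNAs or proteins, 4 rose and 1 fell (median 0.03), so 45.5% were called, fewer than the 56.4% of all genes. The gene that fell was Zfp36l1, which binds AU-rich elements and speeds mRNA decay, from 162 ± 0.798 to 97.5 ± 0.571 CPM (-0.74, adjusted p = 7.96e-07). Hnrnpd, another AU-rich element binder, rose (0.26, adjusted p = 0.0013), as did, named after their values were seen, Cop1 (0.15) and Det1 (0.22), which belong to a ubiquitin ligase for Jun. The count of lower genes was 3 without shNT replicate 1 and 2 without shNT replicate 3, and with library sizes alone 2 rose and 3 fell. The calls lost in that setting were those of Cop1 (0.06, adjusted p = 0.211) and Det1 (0.13, adjusted p = 0.0943).

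Of 26 other immediate early genes tested, 15 rose, 5 fell and 6 did not pass the test, with a median of 0.33, beside 28.8% higher and 27.7% lower among all genes. The difference from Fos, Fosb and the Egr genes was not tested. Klf4, a zinc finger factor, rose from 22.2 ± 0.945 to 74.4 ± 1.15 CPM (1.75, adjusted p = 4.27e-07), Mcl1, a survival factor of the BCL-2 family, from 152 ± 0.676 to 255 ± 3 CPM (0.75, adjusted p = 5.4e-07), and Ccn2, a matricellular growth factor, from 129 ± 3.91 to 252 ± 12.2 CPM (0.96, adjusted p = 3.4e-06). The 5 that fell, named after their values were seen, were Nr4a1 (-0.80), Gem (-0.74), Klf2 (-0.60), Sgk1 (-0.49) and Arc (-0.36). The call of Arc was lost without shNT replicate 3 (-0.27, adjusted p = 0.0671) and without shARF replicate 2 (-0.27, adjusted p = 0.0638).

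Of genes known as AP-1 targets, 17 of the 24 tested (of 27 listed) rose and 3 fell, with a median of 0.42. Over all genes, 28.8% were higher and 27.7% lower. Itga5, the fibronectin receptor subunit, rose from 298 ± 1.09 to 719 ± 15.5 CPM (1.27, adjusted p = 1.54e-07). Ccnd1, which encodes cyclin D1, rose by 1.43 on the log2 scale. The 3 that fell, named after their values were seen, were Spp1, which encodes osteopontin (-1.36), Plat, the tissue plasminogen activator (-0.58), and Timp1, a metalloproteinase inhibitor (-0.23).

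Of 15 genes known as EGR targets, 11 rose and 2 fell, with a median of 0.47, where 28.8% of all genes were higher and 27.7% lower. No test of these lists as groups was made. Vegfa, the endothelial growth factor, rose from 38.7 ± 2.55 to 103 ± 0.656 CPM (1.42, adjusted p = 1.68e-06). Id4, an inhibitor of basic helix-loop-helix factors, fell from 16.0 ± 1.21 to 1.37 ± 0.149 CPM (-3.54, adjusted p = 7.79e-07), and Id3 (-0.36), named after its values were seen, was the other. Both target lists come from general knowledge of these factors in other cells, and their genes answer to many other regulators.

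**Figure D4:**
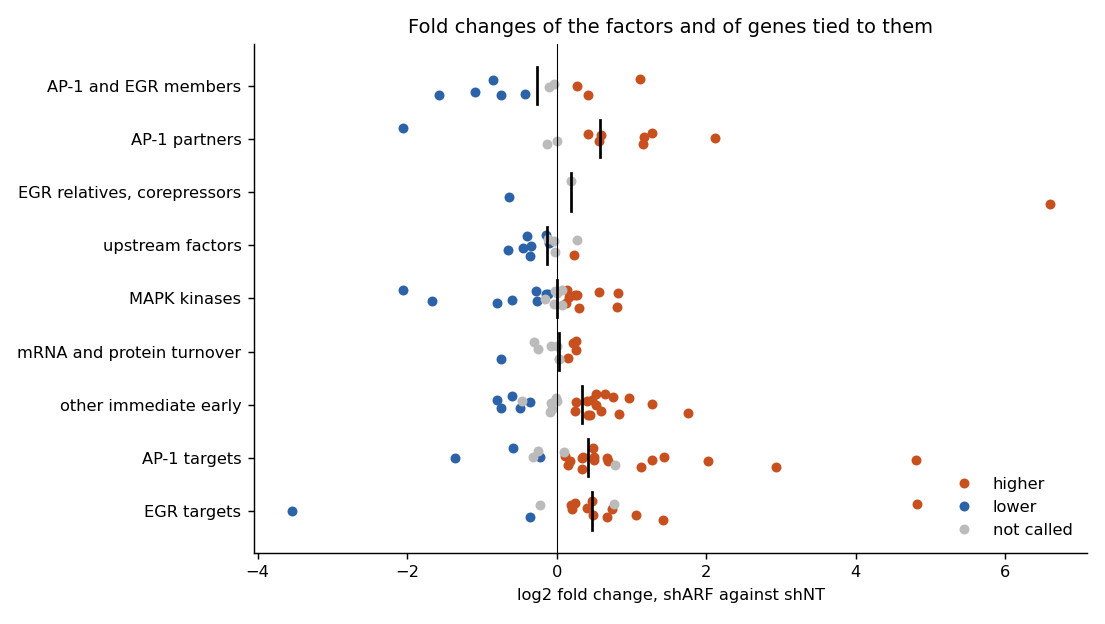
Log2 fold change of shARF against shNT for the 10 factors and for each tested gene of the 8 lists (1 point per gene, orange for higher, blue for lower, grey for not called, black line for the median, vertical jitter only to separate points). The medians of AP-1 partners (0.58), AP-1 targets (0.42) and EGR targets (0.47) lie above 0, while that of the 10 factors is -0.27.

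The genes closest in pattern to 3 of the factors were found by the Euclidean distance of centred log2 CPM over the 6 libraries. The candidates were 10406 genes that averaged 5 CPM or more, with symbols of predicted or clone-named gene models left out. They were Zfp974, Mcfd2 and Ift80 for Fos (distances 0.19 to 0.194), Ift57, Klf16 and Ube2j2 for Jun (0.0292 to 0.0424) and Yif1a, Brsk1 and Crtc1 for Egr1 (0.0304 to 0.045). With 2 groups this measure mainly ranks genes by a similar step between groups, and with 9667 genes called many lie close.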

How the data were processed

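RNA-seq of 3 shNT and 3 shARF libraries was used, grouped by their titles. The authors deposited whole-number counts per gene. The submitters' processing notes list, with no role or order, the build GRCm38 and the tools DESeq2 1.34.0, StringTie 1.3.2, HISAT2 2.1.0, Picard 2.13.2, Trim Galore 0.4.1 and SAMtools 0.1.19. For the counting tool, strand setting and duplicate handling: not given in the sources used here. The 6 further columns of the table match no sample here and were not used. Columns of shARF carry other index numbers than the titles and were matched on group and replicate.

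Symbols, coordinates and exon lengths came from GENCODE M21 (54723 of 54752 IDs matched when the version was ignored; the other 29 held 0.00291% of counts). The test was edgeR 4.0.16 (R 4.3.3) with TMM, the filterByExpr defaults (minimum count 10, minimum total 15), the quasi-likelihood F test on group, two-sided, and Benjamini-Hochberg adjustment over 17128 genes at 0.05. Family shares were compared by exact permutation. The steps were tested on simulated counts. Total counts of 40.3 to 47 M make 1 CPM about 40 reads or more. The members and lists were chosen with earlier results of these data known. Named were the 10 members, Cdkn2a, sex-linked genes, the 3 genes of smallest p in each list, every gene of lists of 4 or fewer and 3 genes of like pattern for Fos, Jun and Egr1; some genes that this rule names are not reported here. Alternatives were DESeq2 1.42.0, limma-voom (limma 3.58.1), other scalings and filters, a threshold of 0.01, a replicate block and each library left out.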

Additional observations from a re-analysis of the deposited data

How the results depend on the processing

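The direction of each of the 10 factors held in every alternative in which it was tested. Of 159 such values for the 10 factors, 155 stayed on the same side of the threshold, as did 795 of 814 for the other named genes, and none changed sign. Fosb was not tested with at least 5 CPM in 3 libraries and lost its call at a threshold of 0.01 (adjusted p = 0.0128). With library sizes alone, all 10 factors were called, 3 higher and 7 lower, and the split over all genes moved to 4023 higher and 5874 lower, from 4930 and 4737. Without any length correction, the differences in family share (shARF minus shNT, percentage points) were 6.28 for Fosl1, -5.34 for Fosl2, -0.539 for Fos and 4.17 for Jun, against 17.0, -14.3, -2.1 and 2.83 per kb. With the principal transcript as the length, chosen after seeing the data, Fosl1 gave 14.8. Same-numbered libraries did not deviate together (correlations of -0.131, -0.0468 and -0.0331), and no library deviated most like the library of its own number in the other group. With the replicate number as a block, 8913 genes were called in place of 9667, and of the 10 factors 3 were higher and 5 lower; lower kinases numbered 5 in place of 8. Depth limits Fos, Fosb and Egr2, which had fewer than 280 counts in each library.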

Other observations

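Fgf2, a fibroblast growth factor on the list of EGR targets and named after its values were seen, was at 10.9 and 11.1 CPM in shNT replicates 1 and 2, at 0.899 CPM in shNT replicate 3 and at 12.3 to 14.1 CPM in shARF. Its log2 fold change of 0.77 did not pass edgeR's test (adjusted p = 0.386), and without shNT replicate 3 a smaller one of 0.24 did (adjusted p = 0.0485). Creb1, an upstream factor also named after its values were seen, was lowest in replicate 3 of both groups, at 58.0, 66.9 and 38.3 CPM in shNT and 81.4, 70.0 and 46.0 CPM in shARF. Icam1, an adhesion molecule on the same list as Fgf2, was at 0.267 to 0.656 CPM in shNT (13 to 27 counts per library). It rose to 11.4 ± 0.479 CPM in shARF, a log2 fold change of 4.82 (edgeR adjusted p = 8.8e-06).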
